A study of Mus musculus with 6 samples.

Results

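The CCN genes encode secreted matricellular proteins, which sit in the extracellular matrix and act on cells through receptors rather than as scaffold. Ccn1 to Ccn5 were chosen by gene symbol in the deposited count table, and 5 of 5 were present among its 16254 genes. The family was taken up because Ccn3 was nearly absent from sham-treated eosinophils and high in EV-treated ones, so the difference between treatments in Ccn3 is given as a description without a test. The other members were chosen by family name, with earlier results of these data known. Their fits come from the same contrast and are not independent evidence.

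The cells were bone marrow-derived eosinophils from C57BL/6 mice aged 6 to 12 weeks. All cultures were grown with FLT3 ligand and stem cell factor, then with IL-5, and were used on day 12. EV-treated eosinophils received 5e9 extracellular vesicles (EVs) per ml, purified from Th2 cells restimulated through the T-cell receptor, for 24 h. Sham-treated eosinophils received the same volume of medium that had met no T cells and had gone through the same purification. In other cultures at this dose and time, the authors found higher eosinophil survival with such EVs than without treatment. The viability of the sequenced cultures is not given in the sources used here. There were 3 sham and 3 EV libraries of poly(A) RNA, described as biological replicates; whether same-numbered cultures shared marrow is not stated. The estimated counts summed to 23697620 to 37874426 per library.

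CCN proteins are built from a signal peptide and a row of cysteine-rich modules that resemble parts of insulin-like growth factor-binding proteins, von Willebrand factor, thrombospondin and cystine-knot growth factors. They bind integrins, LRP1 and heparan sulfate proteoglycans, and so influence adhesion, migration, matrix production and the handling of growth factors. Ccn1 (formerly Cyr61) and Ccn2 (formerly Ctgf) are early genes of growth factor, TGF-beta and mechanical signals and well-known targets of YAP and TAZ with TEAD factors. Ccn3 (formerly Nov) encodes a protein that binds Notch1 and opposes several matrix-inducing actions of CCN2. Ccn4 (formerly Wisp1) and Ccn5 (formerly Wisp2) were named as Wnt-induced genes, and the CCN5 protein lacks the C-terminal module.

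The genes lie at separate loci of GRCm38, also called mm10, the build named in the submitters' processing notes, and each reference transcript in GENCODE vM21 has 5 exons. Ccn1 (ENSMUSG00000028195.4) spans chr3:145646976-145649981 on the minus strand. Ccn2 (ENSMUSG00000019997.11) spans chr10:24595442-24598683 on the plus strand. Ccn3 (ENSMUSG00000037362.8) and Ccn4 (ENSMUSG00000005124.10) share a chromosome, at chr15:54745702-54754039 and chr15:66891320-66923201, both on the plus strand. Ccn5 (ENSMUSG00000027656.7) spans chr2:163820861-163833146 on the plus strand. The coding regions hold 379, 348, 354 and 367 codons in Ccn1, Ccn2, Ccn3 and Ccn4, and 251 in the shorter Ccn5.

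The members resemble each other in the first module, where a stretch of 24 bases encodes the cysteine motif typical of insulin-like growth factor-binding proteins. These windows are shown because they are the stretch by which the family is recognised, and because they show how far each member departs from Ccn3. Capitals mark bases unlike those of Ccn3.
Ccn1: ggctgcGGctgctgtAAggtCtgc
Ccn2: ggctgcGGctgctgCcGCgtCtgc
Ccn3: ggctgctcctgctgtccggtgtgc
Ccn4: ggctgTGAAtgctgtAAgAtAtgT
Ccn5: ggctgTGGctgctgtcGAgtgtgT

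In this window Ccn1 differed from Ccn3 at 5 bases, Ccn2 and Ccn5 at 6 each, and Ccn4 at 9. The similarity did not extend to long identical stretches. No 31-base word of the Ccn1, Ccn4 or Ccn5 transcripts occurred in a transcript of another gene, against 0.169% of such words in Ccn2 and 1.38% in Ccn3. Few reads could therefore be shared between members or with other genes at this word length.

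Ccn3 was the member that was higher in EV-treated eosinophils. The rounded counts were 0, 0 and 2 in sham replicates 1 to 3, and 1333, 1393 and 1355 in EV replicates 1 to 3. Normalized counts are rounded counts divided by library totals adjusted with TMM scaling factors (edgeR) and set to a common depth. On this scale the levels were 0, 0 and 2.43 in sham libraries against 1332, 1194 and 1179 in EV libraries. All 3 EV libraries were alike and far above every sham library. A count of 3 would have been worth between 2.70 and 3.68 normalized counts in a sham library, so that no sham library lay above this limit.

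The mean level of Ccn3 was 0.810 ± 1.40 normalized counts in sham-treated and 1235 ± 84.1 in EV-treated eosinophils (SD, n = 3 each). Summed over libraries and set to equal depth, the EV count of 4081 stood at 1691 times the sham count of 2, with an exact 95% interval of 467.9 to 13970. That interval covers counting error only, and its width comes from the 2 sham counts. The fitted log2 fold change, EV minus sham, was 10.50, a value that depends on the count added to avoid zeros and is not a bound. It was the 2nd highest of 13498 genes tested, those that passed a filter on low counts. Ccn3 passed that filter only through the EV libraries. In EV-treated eosinophils the level of Ccn3 stood at the 66.3rd percentile of tested genes, above the median gene. In bulk RNA a change in the number of cells of a type and a change in RNA per cell cannot be told apart, for Ccn3 or for the other members.

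**Figure D1:**
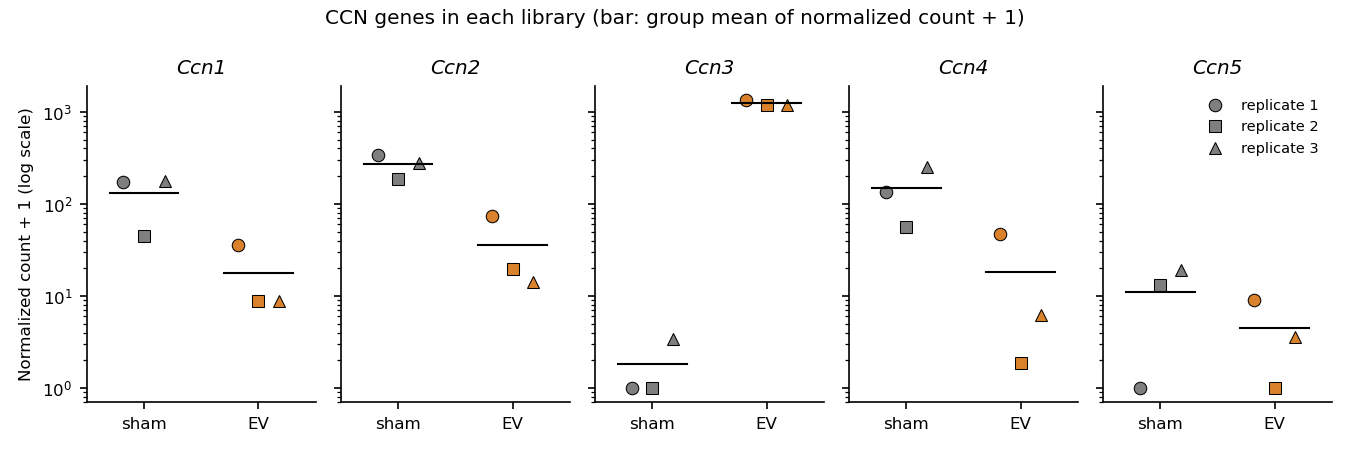
Normalized count plus 1 on a log scale for Ccn1 to Ccn5 in each sham (grey) and EV (orange) library; symbols mark replicate numbers and bars the group mean. Ccn3 lies at 0 to 2.43 normalized counts in sham and above 1179 in EV libraries, whereas Ccn1, Ccn2 and Ccn4 are lower in every EV library and EV replicate 1 is the highest of the EV libraries for each of them.

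Ccn1 and Ccn2, the pair of early genes that promote adhesion and matrix production, were lower in EV-treated eosinophils. Ccn2 had normalized counts of 339, 186 and 279 in sham replicates 1 to 3 and of 72.9, 18.9 and 13.1 in EV replicates 1 to 3. Ccn1 had 171, 44.1 and 175 in sham replicates and 35.0, 7.71 and 7.83 in EV replicates. For both genes all EV libraries lay below all sham libraries, with EV replicate 1 the highest of the EV group. Sham replicate 2 was the lowest of the sham group for both.

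The mean of Ccn2 was 268 ± 76.9 in sham and 35.0 ± 33.0 normalized counts in EV libraries (SD, n = 3 each). Its log2 fold change was -2.96 ± 0.54 (SE), with an adjusted p of 0.00193 over all genes tested (edgeR quasi-likelihood test, Benjamini-Hochberg). The mean of Ccn1 was 130 ± 74.5 in sham and 16.8 ± 15.7 in EV libraries. Its log2 fold change was -2.97 ± 0.70, with an edgeR adjusted p of 0.00808.

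By this fit Ccn1 and Ccn2 passed the threshold, an adjusted p under 0.01, as lower genes. At that threshold 11.6% of all genes tested were lower and 12.1% were higher. The count of lower members rests on individual libraries. Ccn2 passed with a log2 fold change of -4.06 (edgeR adjusted p = 4.39e-05) without EV replicate 1, but its edgeR adjusted p was 0.0101 without sham replicate 3 and 0.0114 without EV replicate 2. Ccn1 missed the threshold without sham replicate 1, sham replicate 3, EV replicate 2 or EV replicate 3, where the edgeR adjusted p ran from 0.0259 to 0.0404.

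Ccn4, whose product acts on fibroblasts, bone and smooth muscle cells, had the same order of groups with more spread. Its normalized counts were 132, 55.1 and 253 in sham replicates 1 to 3 and 46.0, 0.857 and 5.22 in EV replicates 1 to 3. The groups did not overlap, but EV replicate 1 came within a factor of 1.2 of sham replicate 2. The mean was 147 ± 99.6 in sham and 17.3 ± 24.9 in EV libraries (SD, n = 3 each). The log2 fold change was -3.11 ± 0.96, and the edgeR adjusted p of 0.0299 missed the threshold. Without EV replicate 1 the log2 fold change was -5.54 and the edgeR adjusted p 0.00116, a call that was not made without any 1 of the other libraries. The call also turned on the model: with all 6 libraries limma gave an adjusted p of 0.00897, and edgeR with the replicate number as a block gave -3.74 and an adjusted p of 0.000405.

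Ccn5 was too low for the filter and was not tested. Its normalized counts were 0, 12.3 and 18.2 in sham replicates and 7.99, 0 and 2.61 in EV replicates. The groups overlapped, and each held a library at 0. The means were 10.2 ± 9.29 and 3.53 ± 4.08 (SD, n = 3 each), from 25 sham and 11 EV counts in all. The ratio of summed counts, sham to EV at equal depth, was 2.74 with an exact 95% interval of 1.30 to 6.17, for counting error only; the spread between libraries, with a library at 0 in each group, is not covered by it.

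**Figure D2:**
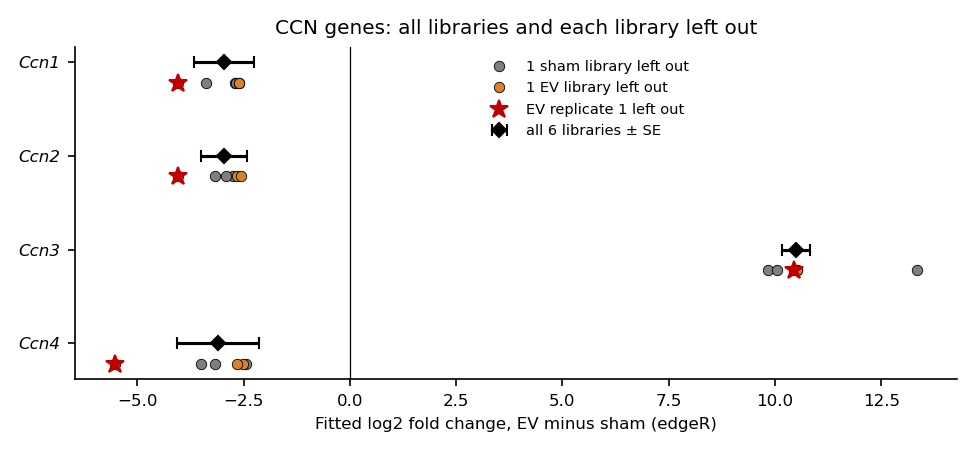
Fitted log2 fold change, EV minus sham, for Ccn1, Ccn2, Ccn3 and Ccn4; diamonds with bars give the value ± SE over 6 libraries, circles the values with 1 sham (grey) or EV (orange) library left out, and stars the value without EV replicate 1. Leaving out EV replicate 1 moves Ccn1, Ccn2 and Ccn4 to their lowest values, -4.04, -4.06 and -5.54, and no left-out library turns a direction.

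The groups of 3 of the 4 members tested did not overlap in the lower direction, as held for 24.7% of all genes tested, and those of Ccn3 did not overlap in the higher direction, as held for 24.8%. The pooled differences of these 3 members were close in size. The ratio of summed counts, sham to EV at equal depth, was 8.42 for Ccn1 (exact 95% interval 6.30 to 11.5), 8.31 for Ccn2 (6.80 to 10.3) and 9.11 for Ccn4 (6.83 to 12.4). These intervals overlap one another and cover counting error only. The closeness rests on EV replicate 1, without which the ratios were 17.3 for Ccn1 (10.8 to 29.5), 17.3 for Ccn2 (12.4 to 24.7) and 48.1 for Ccn4 (23.2 to 120.5), the last from 7 EV counts. The spread between cultures was wider than counting error, with coefficients of variation between EV libraries of 93.2% for Ccn1, 94.5% for Ccn2 and 143% for Ccn4. For Ccn3 the coefficient was 6.81%.

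The makeup of CCN transcripts is given as a description, since its shift restates the Ccn3 difference for which the family was chosen. Of all CCN counts in sham libraries, Ccn2 made up 48.7%, Ccn4 25.7%, Ccn1 23.8%, Ccn5 1.61% and Ccn3 0.129%. Of all CCN counts in EV libraries, Ccn3 made up 94.7%, Ccn2 2.55%, Ccn1 1.23%, Ccn4 1.23% and Ccn5 0.255%. The share of Ccn3 was 89.2%, 97.8% and 97.6% in EV replicates 1 to 3, and 0.334% in sham replicate 3, the only sham library with a Ccn3 count. With Ccn3 set aside, the pooled shares in sham and EV libraries were 48.8% and 48.5% for Ccn2, and 25.8% and 23.3% for Ccn4. They were 23.8% and 23.3% for Ccn1, and 1.61% and 4.85% for the low Ccn5. The closeness of the first 3 rests on EV replicate 1, which held 162 counts without Ccn3, against 32 and 33 in EV replicates 2 and 3. The count of Ccn4 over that of Ccn2 was 0.63, 0.0455 and 0.4 in EV replicates 1 to 3. In sham replicates 1 to 3 it was 0.391, 0.296 and 0.904.

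Levels per kilobase of transcript allow the members to be ordered, since the Ccn4 transcript has 5097 bases and that of Ccn5 1719. In sham-treated eosinophils the levels were 112 ± 32.1 normalized counts per kb for Ccn2, 64.4 ± 36.9 for Ccn1, 28.8 ± 19.5 for Ccn4, 5.91 ± 5.41 for Ccn5 and 0.282 ± 0.489 for Ccn3 (SD, n = 3). The ranges over libraries of Ccn2 and Ccn1 overlapped, as did those of Ccn1 and Ccn4. Within each of the 3 sham libraries, however, Ccn2 stood above Ccn1 and Ccn1 above Ccn4. Ccn2 had 141, 77.7 and 117 normalized counts per kb in sham replicates 1 to 3, Ccn1 had 84.8, 21.9 and 86.7, and Ccn4 had 26.0, 10.8 and 49.6. In EV-treated eosinophils the levels were 430 ± 29.3 normalized counts per kb for Ccn3, 14.6 ± 13.8 for Ccn2, 8.34 ± 7.78 for Ccn1, 3.40 ± 4.88 for Ccn4 and 2.06 ± 2.37 for Ccn5. Ccn3 stood apart from every other member there, and the ranges over libraries of all neighbours below it overlapped. Ccn2 stood above Ccn1 and Ccn1 above Ccn4 in each of the 3 EV libraries too.

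EV replicate 1 differed from EV replicates 2 and 3 in the lower members. Its level over the mean of the other two was 4.5 for Ccn1, 4.57 for Ccn2 and 15.1 for Ccn4, where the median over all genes tested was 0.997. A ratio at least as high was held by 1.36% of genes for Ccn1, 1.36% for Ccn2 and 0.363% for Ccn4. For Ccn3 the ratio was 1.12, and 19.9% of genes were as high.

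Some markers of other cells moved with the lower members. The summed level of 10 fibroblast or stromal cell markers, among them the fibrillar collagens, was 680.1, 368.1 and 695.3 CPM in sham replicates 1 to 3. In EV replicates 1 to 3 it was 250.3, 57.09 and 75.27 CPM. CPM are counts scaled to the library total adjusted with the TMM factor. The sum of Ccn1, Ccn2, Ccn4 and Ccn5 was 642.4, 297.8 and 725.4 normalized counts in sham and 161.8, 27.43 and 28.72 in EV replicates. Both sums ranked the 6 libraries in the same order, sham replicates 3, 1 and 2, then EV replicates 1, 3 and 2. The order of EV replicates 3 and 2 in the CCN sum rests on 33 against 32 counts and is close to a tie. Most of the stromal sum was Col1a1 and Col1a2 in sham libraries and EV replicate 1. In EV replicates 2 and 3 most of it was Pdgfrb. Pdgfrb did not fall, with means of 1201 normalized counts in sham and 1421 in EV libraries, and Lepr was at 22.9 and 21.4. The other markers of the list had lower means in EV libraries, by little for Dcn. Of the 8 stromal markers tested, 0 rose and 1 fell: Col1a2, a chain of type I collagen, at -2.91 (edgeR adjusted p = 0.00662), a call lost in 5 of 6 fits without 1 library, all but that without EV replicate 1, and in DESeq2. Without EV replicate 1, 3 of the 8 fell, and without any 1 of the other libraries 0 did. The matrix proteoglycan genes Dcn and Lum were at 0 in EV replicates 2 and 3, but in sham libraries Lum was also at 0 in replicate 2 and Dcn in replicate 3. The part of stromal cells in the lower level of Ccn1, Ccn2 and Ccn4 was not tested.

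All 11 markers of the labelled cell type, the eosinophil, had counts in every library. Their sum was 30150 to 37990 CPM in sham and 43080 to 48170 CPM in EV libraries, and 8 of 11 rose and 0 fell (7 and 1 with library totals alone). Ccr3, the eotaxin receptor, stood at 1.13 on the log2 scale (edgeR adjusted p = 7.64e-07). Macrophage or monocyte markers summed to 3045 to 4547 CPM in sham and 2316 to 2584 CPM in EV libraries. Of these, 8 of 10 fell and 2 rose, with a median log2 fold change of -2.52. Lyz2, a lysozyme gene, fell by 3.28 on the log2 scale (edgeR adjusted p = 4.59e-06). Most of the sum in EV libraries was the 2 that rose, Adgre1 and Ly6c2. Their means were 32764 and 27641 normalized counts in EV libraries and 21326 and 10910 in sham libraries. The sum therefore fell less than most of its markers. EV replicate 1 was not high in the macrophage sum, unlike in the stromal sum.

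Of the remaining marker lists, the T cell sum was 15.48 to 30.9 CPM in sham and 5.861 to 7.695 CPM in EV libraries. Most of this sum was Cd28, a costimulatory receptor gene, with rounded counts of 324, 577 and 559 in sham and 27, 55 and 61 in EV libraries. It was the 1 of 3 T cell markers tested that fell, and 0 rose; 2 fell without sham replicate 1. Mast cell or basophil markers summed to 73.45 to 108 CPM in sham and 211.1 to 266.4 CPM in EV libraries. Of these, 5 of 7 were higher and 0 lower, and 4 to 6 were higher with 1 library left out. Endothelial markers (1 higher and 1 lower of 4), megakaryocyte or platelet markers (1 and 2 of 6, or 0 and 2 without sham replicate 3 or EV replicate 3) and neutrophil markers (2 and 4 of 8) moved both ways. The part of any of these in the level of Ccn3 was not tested.

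**Figure D3:**
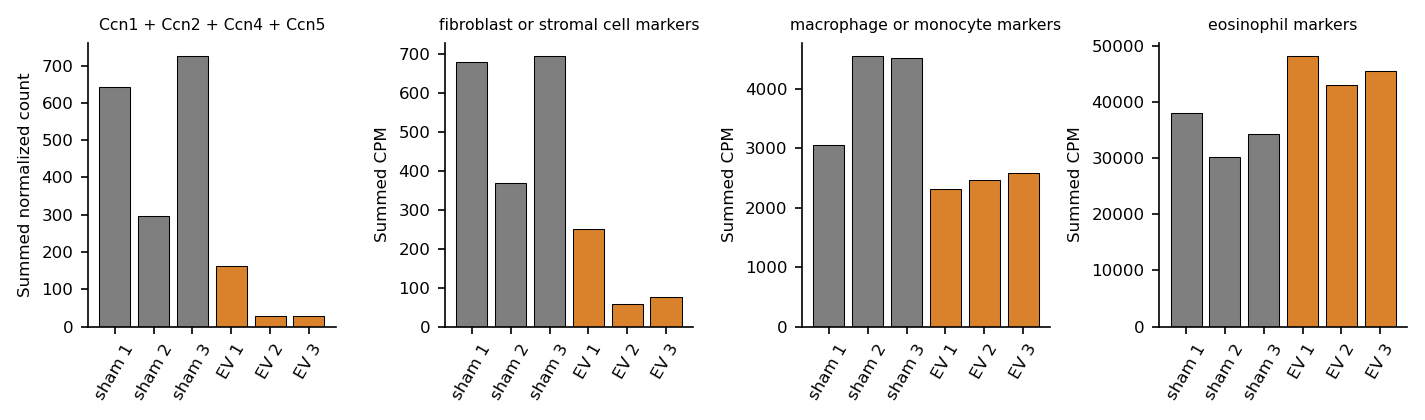
Bars starting at 0 give, for each sham (grey) and EV (orange) library, the summed normalized count of Ccn1, Ccn2, Ccn4 and Ccn5 and the summed CPM of stromal, macrophage and eosinophil markers. The first 2 panels rank the libraries alike, with EV replicate 1 above the other EV libraries at 161.8 normalized counts and 250.3 CPM, while macrophage markers are lowest in EV replicate 1 at 2316 CPM and eosinophil markers highest there at 48170 CPM.

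Receptors and binding partners of CCN proteins changed in both directions, with 4 higher and 5 lower of 14 tested. Their median log2 fold change was -0.20, against -0.014 over all genes. With library totals alone 4 were higher and 7 lower. The largest falls were in Lrp1, an endocytic receptor that binds CCN2, and in the integrin subunit genes Itgb5 and Itga6. Lrp1 had 19300, 33553 and 30958 normalized counts in sham and 1964, 2596 and 2793 in EV libraries, a log2 fold change of -3.51 (edgeR adjusted p = 1.15e-06). Itgb5, the beta subunit of an alpha-v integrin, fell by 2.84 on the log2 scale (edgeR adjusted p = 2.61e-06). Itga6, a laminin receptor subunit used by CCN proteins, fell by 1.68 (edgeR adjusted p = 3.64e-06). Itgb3, another partner of the alpha-v subunit, went the other way, from 3040 to 3786 in sham to 8452 to 9141 normalized counts in EV libraries.

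Notch1, the receptor bound by CCN3, was abundant in both groups, with 52938, 46373 and 42300 normalized counts in sham and 38005, 40114 and 42850 in EV libraries. The groups overlapped, and its edgeR adjusted p was 0.0524. Of 20 Notch pathway genes tested, 6 were higher and 6 lower, with a median log2 fold change of -0.22 (0.04 with no filter on low counts). Scaling by library totals alone gave 3 higher and 8 lower, leaving out EV replicate 2 gave 3 and 3, and leaving out EV replicate 3 gave 3 higher genes. The ligand gene Jag1 fell from between 341 and 793 to between 19.0 and 36.9 normalized counts, a log2 fold change of -4.38 (edgeR adjusted p = 9.5e-06). The target gene Hey1 had 59.5, 28.2 and 74.1 normalized counts in sham and 0, 3.43 and 6.09 in EV libraries, and was called in 1 of 6 fits without 1 library, that without sham replicate 2, with an edgeR adjusted p of up to 0.0305. The receptor gene Notch4 had -2.68 and lost its call only without sham replicate 3, where the edgeR adjusted p was 0.0141.

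The regulators and targets of the YAP and TEAD pathway, which acts on Ccn1 and Ccn2, were read next. Of 16 genes of the YAP/TAZ, TEAD and SRF machinery tested, 4 were higher and 2 lower with TMM scaling, a median of 0.17, but 0 higher and 4 lower with library totals alone. Leaving out 1 library gave 1 to 3 higher and 0 or 1 lower. The named ones were Tead1, a DNA-binding partner of YAP, at -2.80, the Hippo kinase gene Stk3 at -1.06 and its scaffold gene Sav1 at 0.48. Each of the 3 kept its call in only 1 of 6 fits without 1 library (without EV replicate 1 for Tead1, sham replicate 1 for Stk3 and sham replicate 3 for Sav1), and the edgeR adjusted p rose as far as 0.0421, 0.0445 and 0.0319 in the others. Yap1 itself was low, at 26.7 to 64.0 normalized counts in sham and 0 to 17.0 in EV libraries.

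Of 15 YAP/TEAD target genes tested, 2 rose and 5 fell, with a median log2 fold change of -1.55. With DESeq2 9 fell, and without sham replicate 3, EV replicate 2 or EV replicate 3 there were 3. The receptor tyrosine kinase gene Axl fell by 2.60 on the log2 scale, from 2540, 3967 and 3620 to 391, 671 and 601 normalized counts (edgeR adjusted p = 8.15e-06). Axl is also a gene of macrophages. Ptpn14, a phosphatase that binds YAP, had a log2 fold change of -3.04 and Ajuba, a LIM-domain adaptor, -2.02. Ptpn14 kept its call without sham replicate 1 or EV replicate 1 only, and Ajuba without sham replicate 2 only, with an edgeR adjusted p of up to 0.0239 and 0.0264.

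The Ccn1 promoter is the only member promoter in the RefSeq promoter table used here (GRCm38.p6), and it is shown because the TEAD element is the best-known route to this gene. The 250 bases before the start, chr3:145649986-145650235 on the minus strand, read as follows, with the TEAD core and the TATA box in capitals.
Ccn1 promoter: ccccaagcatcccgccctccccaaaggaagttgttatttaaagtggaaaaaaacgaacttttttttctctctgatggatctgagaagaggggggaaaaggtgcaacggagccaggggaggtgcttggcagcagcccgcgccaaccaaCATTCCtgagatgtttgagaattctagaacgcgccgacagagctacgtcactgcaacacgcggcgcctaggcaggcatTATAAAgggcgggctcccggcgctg
Both strands were searched, and the matches do not overlap. The TEAD core GGAATG was found on the other strand as CATTCC, beginning 103 bases before the start, and 12.6% of 32544 promoters hold one. The TATA box TATAAA begins 25 bases before the start, and 12.3% of promoters hold one. The STAT palindrome TTCNNNGAA (7.04% of promoters) and the SRF CArG box (1.48%) have no match in this window.

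Among TGF-beta signaling genes, which act upstream of Ccn2 in many cells, 1 rose and 9 fell of 22 tested, with a median log2 fold change of -0.47. With library totals alone 1 rose and 13 fell. The one that rose was Tgfb1, a ligand made by eosinophils, from 8129 to 8209 normalized counts in sham to 12326 to 13386 in EV libraries, or 0.67 on the log2 scale (edgeR adjusted p = 9.41e-06). The inhibitory SMAD gene Smad6 had a log2 fold change of -4.35 (edgeR adjusted p = 1.55e-05). Ltbp3, which encodes a latent TGF-beta binding protein, had -2.92 (edgeR adjusted p = 1.12e-05).

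Of 20 Wnt/beta-catenin genes tested, the pathway after which Ccn4 and Ccn5 were first named, 2 rose and 7 fell, with a median of -0.36; 1 rose and 11 fell with library totals alone. Without sham replicate 3 or any 1 EV library 1 rose and 4 fell. The receptor gene Fzd1 fell by 3.63 on the log2 scale (edgeR adjusted p = 9.77e-06). Rnf43 and Znrf3, a pair of ubiquitin ligases that remove Wnt receptors, had -1.17 and -1.35. Rnf43 was called with each library left out, whereas Znrf3 was called only without sham replicate 1 or 2, with an edgeR adjusted p of up to 0.0312 in the other fits.

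**Figure D4:**
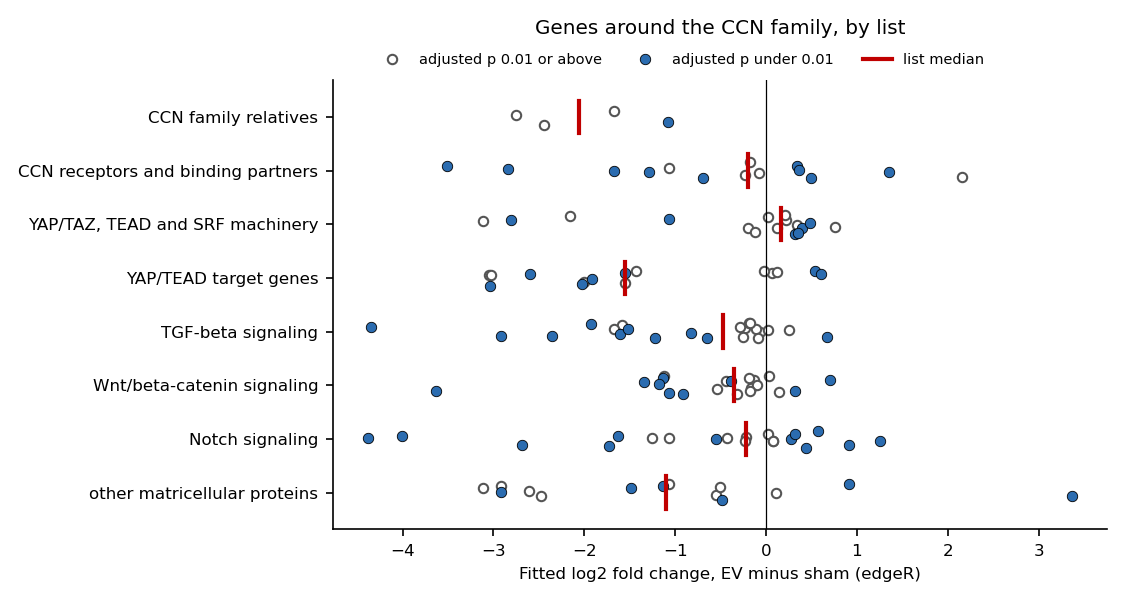
Fitted log2 fold change, EV minus sham, of each gene tested in the lists around the CCN family; filled circles have an adjusted p under 0.01, open circles do not, and red bars are list medians. Medians run from -2.06 in the CCN family relatives to 0.17 in the YAP/TAZ, TEAD and SRF machinery, and most lists hold called genes on both sides of 0.

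Genes related in structure to the CCN family were few: 6 of the 10 listed were in the table, 4 were tested, 0 rose and 1 fell, with a median of -2.06. The one called was Igfbp4, a growth factor-binding protein gene, at -1.08 (edgeR adjusted p = 5.51e-05). Igfbp7 had 260, 227 and 181 normalized counts in sham and 82.9, 3.43 and 14.8 in EV libraries, with EV replicate 1 again the highest of its group, and an edgeR adjusted p of 0.0165. Without EV replicate 1, 3 of the 4 fell. Ccn6 was listed but was not among the genes of the table, so it has no value here.

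Other matricellular genes gave 2 higher and 4 lower of 14 tested, with a median log2 fold change of -1.10. Fgl2, a fibrinogen-like protein of immune cells, rose from between 910 and 1204 to between 10325 and 11844 normalized counts, a log2 fold change of 3.37 (edgeR adjusted p = 3.14e-08). Spp1, which encodes osteopontin, fell by 1.49 on the log2 scale (edgeR adjusted p = 4.27e-05). Postn, which encodes periostin, had 538, 287 and 801 normalized counts in sham and 161, 32.6 and 25.2 in EV libraries, at -2.92. Its call was lost in 4 of 6 fits, without sham replicate 1 or 3 or EV replicate 2 or 3, at an edgeR adjusted p of up to 0.0266. Without EV replicate 1, 2 rose and 7 fell in this list, against 2 that rose and 2 that fell without sham replicate 3 or EV replicate 2. Postn shared with Ccn1, Ccn2 and Ccn4 the higher value in EV replicate 1. This list held called genes in both directions. Among the CCN genes the higher one is Ccn3, for whose difference the family was chosen. No test set the CCN genes against this list.

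The genes closest to Ccn3 were found by the distance between log2 CPM profiles over the 6 libraries, with no test. The nearest was Gvin-ps4, a pseudogene of the interferon-induced very large GTPases, at a distance of 1.31. It was at 0 in all 3 sham libraries and at 1119, 812 and 1072 normalized counts in EV libraries. As a pseudogene of a family of near-identical copies, its reads may come in part from other copies. Next came Serpina3g, a serine protease inhibitor gene, at 2.87, with 0, 9.80 and 8.51 normalized counts in sham and 1591, 1233 and 1226 in EV libraries. It too belongs to a cluster of similar genes between which reads can be split.

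Car4, a membrane-bound carbonic anhydrase gene, followed at a distance of 3.81 and had 9.91, 8.58 and 9.72 normalized counts in sham against 1444, 1251 and 1213 in EV libraries. Arg1, which encodes arginase, stood at 3.87 with 0, 13.5 and 21.9 in sham against 1054, 1463 and 1395 in EV libraries. The eosinophil chemokine gene Ccl24 was the fifth, at 5.28, with 0 in each sham library and 131, 206 and 144 in EV libraries. Like Ccn3, these genes had no or few counts in sham libraries, which follows from how they were chosen. Relative to the mean, their spread between EV libraries was wider than that of Ccn3, whose SD was 84.1 on a mean of 1235. It ran from an SD of 123 on 1303 for Car4 to 40.0 on 160 for Ccl24. EV replicate 1 was the highest EV library for Ccn3, Gvin-ps4, Serpina3g and Car4 but the lowest for Arg1 and Ccl24.

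**Figure D5:**
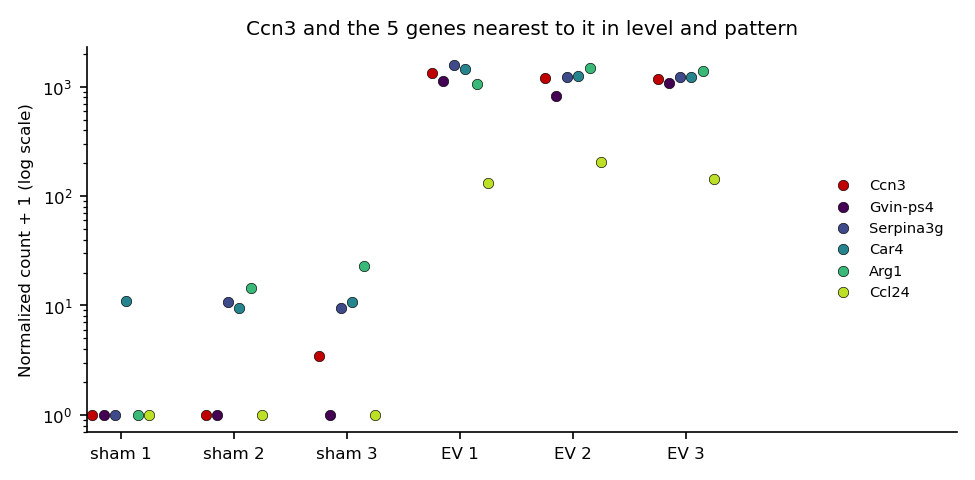
Normalized count plus 1 on a log scale in each of the 6 libraries for Ccn3 (red) and the 5 genes with the smallest distance to it in log2 CPM. Ccn3 and 4 of the genes reach 812 to 1591 normalized counts in EV libraries and 21.9 or fewer in sham libraries, and Ccl24 reaches 131 to 206.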

How the data were processed

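FastQC served for read quality, Cutadapt for trimming, Salmon for quantification and DESeq2 for the comparison by the authors; mm10 is the build in their notes; tool versions, index annotation and strandedness are not given in the sources used here. They deposited estimated counts of 16254 genes and a normalized count signal. That signal equals the rounded count plus 1 divided by a size factor for 97519 of 97524 values. The normalized counts printed here were not taken from it but are rounded counts divided by TMM-scaled library totals. The deposited table of the authors' own comparison (fold changes, p-values) was not used.

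Estimated counts were rounded and fitted with edgeR 4.0.16 in R 4.3.3 (TMM scaling with factors of 0.936 to 1.06, filterByExpr with its minimum count of 10, quasi-likelihood test, Benjamini-Hochberg adjustment over 13498 genes, threshold 0.01), in a model with treatment only. CPM values have a prior count of 2 in the distances. SE is the log2 fold change over the root of F. Exact permutation of 3 against 3 libraries cannot go below p = 0.1, so none is given. Ratios of summed counts have conditional binomial 95% intervals; for Ccn3 this replaced the planned lower bound, since the sham sum was not 0. The fit was tested on simulated data. No pair of replicates agreed within sampling noise.

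The members, lists and alternatives were chosen with earlier results of these data known. Genes named are the members, in each list the 3 genes with the largest absolute log2 fold change among those called, and the 5 nearest to Ccn3; marker lists are given by counts and sums, with at most 1 example. A gene that falls under this rule is not reported here. Itgb3, Notch1, Yap1, Tgfb1 and Igfbp7 were added after their values were seen, as were Dcn, Lum, Col1a1, Pdgfrb, Lepr, Adgre1 and Ly6c2. Coordinates and the 24-base windows come from GENCODE vM21. Alternatives were DESeq2 1.42.0 (size factors and test), no TMM, no filter and a replicate block. Others were thinning to the smallest library, leaving out each library, and limma 3.58.1 on log2 of the deposited normalized signal plus 1.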

Additional observations from a re-analysis of the deposited data

How the results depend on the processing

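No log2 fold change of a member and neither count over all genes reversed; of the lists, the Notch median turned from -0.22 to 0.04 with no filter, the YAP/TAZ, TEAD and SRF machinery from 4 higher and 2 lower to 0 and 4 without TMM, and the megakaryocyte median from -0.24 to between 0.42 and 0.53 without sham replicate 1, 2 or 3 or EV replicate 2. Leaving out 1 library gave log2 fold changes of -4.04 to -2.61 for Ccn1, -4.06 to -2.56 for Ccn2, -5.54 to -2.45 for Ccn4 and 9.85 to 13.34 for Ccn3, the last without sham replicate 3, which held both sham counts. Ccn1 and Ccn2 kept their calls in the 7 other settings. Ccn4 was called at -3.69 with limma (adjusted p = 0.00897) but not with DESeq2 (-3.09, adjusted p = 0.0673). For Ccn3 the fitted value moved to 10.37 without TMM, 10.73 with DESeq2, 8.84 with limma and 10.27 after thinning. Ccn5 could be fitted in 5 alternatives only, at -2.82 to -0.90, with adjusted p from 0.198 to 0.727. Over all genes, leaving out 1 library gave 1071 to 1833 higher and 1018 to 1698 lower genes, the lowest counts without EV replicate 3. Without TMM 1036 genes were higher and 2342 lower, against 1632 and 1572, so that 30.7% of called genes were higher in place of 50.9%, and the median of all genes was -0.16 in place of -0.014. Without EV replicate 2, 1044 genes were lower. With the replicate number as a block Ccn4 was called at -3.74 (adjusted p = 0.000405), Ccn1 was at -3.03 and Ccn2 at -3.20, and 1794 genes were higher and 1781 lower. With the block 8 other matricellular genes were lower in place of 4, and with the block or limma 3 stromal markers in place of 1. CCN relatives had 2 lower genes in place of 1 with the block, limma or thinning. Deviations of same-numbered sham and EV libraries correlated at 0.117, 0.0846 and 0.0371 across genes, and EV replicate 3 correlated best with sham replicate 2, so the numbers were not taken as pairs, and whether cultures shared marrow remains unknown. Low counts limit Ccn5 and the sham level of Ccn3.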
